A study of Mus musculus with 35 samples.

Results

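A set of 9 genes of eicosanoid synthesis and sensing was followed through every wound of the series. They were chosen by name for their place in the prostaglandin and leukotriene pathway, with earlier results of these data known. They are Ptgs1, Ptgs2, Ptges, Ptgir, Alox5, Alox5ap, Alox15, Ltb4r1 and Lta4h, 9 of the 22830 gene symbols counted in each of the 2 deposited tables, and all 9 were found in both. Eicosanoids are short-lived lipid signals made from arachidonic acid that is released from membranes. Cyclooxygenases turn it into prostaglandin H2, from which prostaglandin E2 and prostacyclin are made, while 5-lipoxygenase with its activating protein turns it into leukotriene A4, the precursor of leukotriene B4. Prostaglandins act on vessels, pain fibres and epithelium, and leukotriene B4 draws neutrophils into inflamed skin. In NCBIM37, Ptgs1 lies at chr2:36085946-36107792, Ptgs2 at chr1:151947254-151955140, Ptges at chr2:30744991-30785383, Ptgir at chr7:17491839-17496254, Alox5 at chr6:116360095-116411196, Alox5ap at chr5:150076634-150099621, Alox15 at chr11:70157654-70165533, Ltb4r1 at chr14:56384799-56387331 and Lta4h at chr10:92916141-92947641. No exon of the 9 shares bases with an exon of another annotated gene.

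RNA came from a punch of the centre of full-thickness wounds of dorsal skin, in 35 libraries of 8 groups. Col5a1CKO mice carried floxed Col5a1 and Col1a2CreERT, a tamoxifen-dependent Cre driven by the Col1a2 promoter of collagen-making cells. The controls, called WT, were littermates with floxed Col5a1 and no Cre. Tamoxifen was given before and after wounding, and mice of both sexes were used. The day 14 wounds comprised 7 from WT mice, 7 from Col5a1CKO mice and 3 from Col5a1CKO mice injected intradermally with cultured WT fibroblasts, and each genotype gave 3 more at day 19. In the paper's fibroblast experiment, 7 wounds of each genotype at day 14 are named vehicle groups, and PBS was the control for fibroblasts. A further experiment at day 14 held 4 WT and 4 Col5a1CKO wounds of mice given PBS vehicle and 4 Col5a1CKO wounds of mice given cilengitide, an inhibitor of αv integrins, by daily intraperitoneal injection. The labels conflict on the fibroblasts, which the sample titles place in 3 Col5a1CKO wounds of day 14 and the treatment field in the 3 Col5a1CKO wounds of day 19. Titles were followed here, and every fibroblast and day 19 result rests on that choice. Wounds of the fibroblast experiment and the time course had 15043531 to 35700325 counts each, and those of the cilengitide experiment 51211600 to 68266760. Levels are given as CPM, the counts scaled to library size with TMM factors within a table, or as RPKM, which are CPM per kilobase of transcript and allow genes to be compared with each other. P-values measure the spread between these wounds. A gene was called where its adjusted p was under 0.05 and its change at least 2-fold, and SE is the standard error of a log2 fold change.

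Several features of the libraries bear on what follows. In the table that holds the fibroblast and day 19 wounds, libraries fell into a lower and an upper set by how strongly GC-rich genes were counted. WT day 14 replicates a to d and Col5a1CKO day 14 replicates a to e were in the lower set, and all other wounds of that table in the upper set, including all 3 with fibroblasts. In the upper set the 3 WT wounds at day 14 had 60.3 to 70.3 CPM of the Y-linked Ddx3y and 0.700 to 0.870 CPM of Xist, which the inactive X of females expresses. Col5a1CKO replicates f and g at day 14 and all 3 wounds with fibroblasts had 0.0589 to 0.306 CPM of Ddx3y and 279 to 748 CPM of Xist. Within the upper set, therefore, sex cannot be told apart from genotype or from fibroblast treatment in any day 14 comparison with WT, which holds for the values given from that set for Ptgs1, Ptgs2, Alox5, Alox5ap and Alox15. Over both sets, the only WT wounds of day 14 with high Xist were replicates c and d, at 1006 and 730 CPM. At day 19 all 3 Col5a1CKO wounds had 485 to 649 CPM of Xist. WT replicates b and c had 535 and 527 CPM of Xist there, and replicate a had 42.6 CPM of Ddx3y. The part of sex over all wounds was not tested. Col5a1, counted over the whole gene, ranged from 347 to 2386 CPM in the WT wounds at day 14 and from 170.0 to 663 CPM in those of Col5a1CKO, so the genotypes overlapped, as they did in the vehicle wounds. Replicate 2 of vehicle Col5a1CKO had 0.911 CPM of Xist and 0 CPM of Ddx3y, whereas every other wound of its experiment carried more of one or the other. Results that involve that wound are therefore also given without it where a call changed. Sex was also unbalanced in that experiment. Xist was at 141 and 169 CPM in vehicle WT replicates 1 and 3 and at 187 and 138 CPM in cilengitide replicates 2 and 3. It was at most 1.53 CPM in the vehicle Col5a1CKO wounds, and the part of sex in those comparisons was not tested.

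The promoters of Ptgs1, Ptgs2 and Ptgir are shown because both cyclooxygenases make the same product but had fitted changes of opposite sign in the wounds, and because Ptgir had the largest fitted change among the receptors of the 9. The windows run from 250 bases before to 50 bases after the RefSeq start of each gene. They were read from RefSeq windows of build GRCm38.p6, which held 7 of the 9 genes (not Alox5ap and Alox15), and each was located by an exact match in NCBIM37, the build of the deposited counts. All 3 lie on the plus strand, Ptgs2 at chr1:151946911-151947210, Ptgs1 at chr2:36085696-36085995 and Ptgir at chr7:17491589-17491888. Capitals mark matches to 7 motifs searched on both strands, which were the GC box with the letters GGGCGG, the E-box with the letters CACGTG, the C/EBP site with the letters TTGCGCAA and the core of the cAMP response element with the letters ACGTCA. The others were the AP-1 site with the letters TGANTCA, the TATA box with the letters TATAAA and an ETS-type core with the letters AGGAAGT.
Ptgs2: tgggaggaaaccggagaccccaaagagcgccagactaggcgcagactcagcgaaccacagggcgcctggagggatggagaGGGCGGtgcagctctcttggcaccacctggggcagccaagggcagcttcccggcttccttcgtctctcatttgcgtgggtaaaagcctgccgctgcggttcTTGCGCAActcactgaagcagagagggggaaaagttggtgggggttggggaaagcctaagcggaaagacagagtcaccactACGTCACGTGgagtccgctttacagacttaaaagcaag
Ptgs1: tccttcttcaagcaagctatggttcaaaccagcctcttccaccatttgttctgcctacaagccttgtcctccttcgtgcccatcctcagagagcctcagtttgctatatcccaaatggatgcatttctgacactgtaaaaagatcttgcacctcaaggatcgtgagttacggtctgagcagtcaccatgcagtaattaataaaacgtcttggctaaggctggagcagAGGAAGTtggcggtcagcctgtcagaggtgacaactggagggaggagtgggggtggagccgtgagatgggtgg
Ptgir: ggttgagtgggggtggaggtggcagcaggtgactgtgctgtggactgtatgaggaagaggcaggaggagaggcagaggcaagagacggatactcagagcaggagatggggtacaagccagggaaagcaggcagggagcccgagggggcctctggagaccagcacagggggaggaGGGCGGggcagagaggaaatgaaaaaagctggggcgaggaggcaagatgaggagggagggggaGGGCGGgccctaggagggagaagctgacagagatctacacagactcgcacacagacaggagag

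The Ptgs2 window held TTGCGCAA at positions -69 to -62, a match found in 0.183% of the 32841 mouse windows of this length, and GGGCGG at -170 to -165, found in 35.7%. Its ACGTCA and CACGTG matches overlapped each other, at 13 to 18 and 17 to 22 after the RefSeq start, and such matches occurred in 7.51% and 7.15% of windows. The start of Ptgs2 in the NCBIM37 annotation lies 93 bases beyond its RefSeq start, so the whole window, these matches included, is upstream of the gene position given above. The Ptgs1 window held none of these and had AGGAAGT at -23 to -17, found in 9.35% of windows. The Ptgir window held GGGCGG at -76 to -71 and at -13 to -8. Windows of Ptges, Alox5 and Ltb4r1 each also held GGGCGG, and that of Lta4h matched no motif searched. TGANTCA and TATAAA, found in 7.81% and 13.6% of windows, matched none of the 7. A match describes letters in a window only, and binding was not measured.

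**Figure D1:**
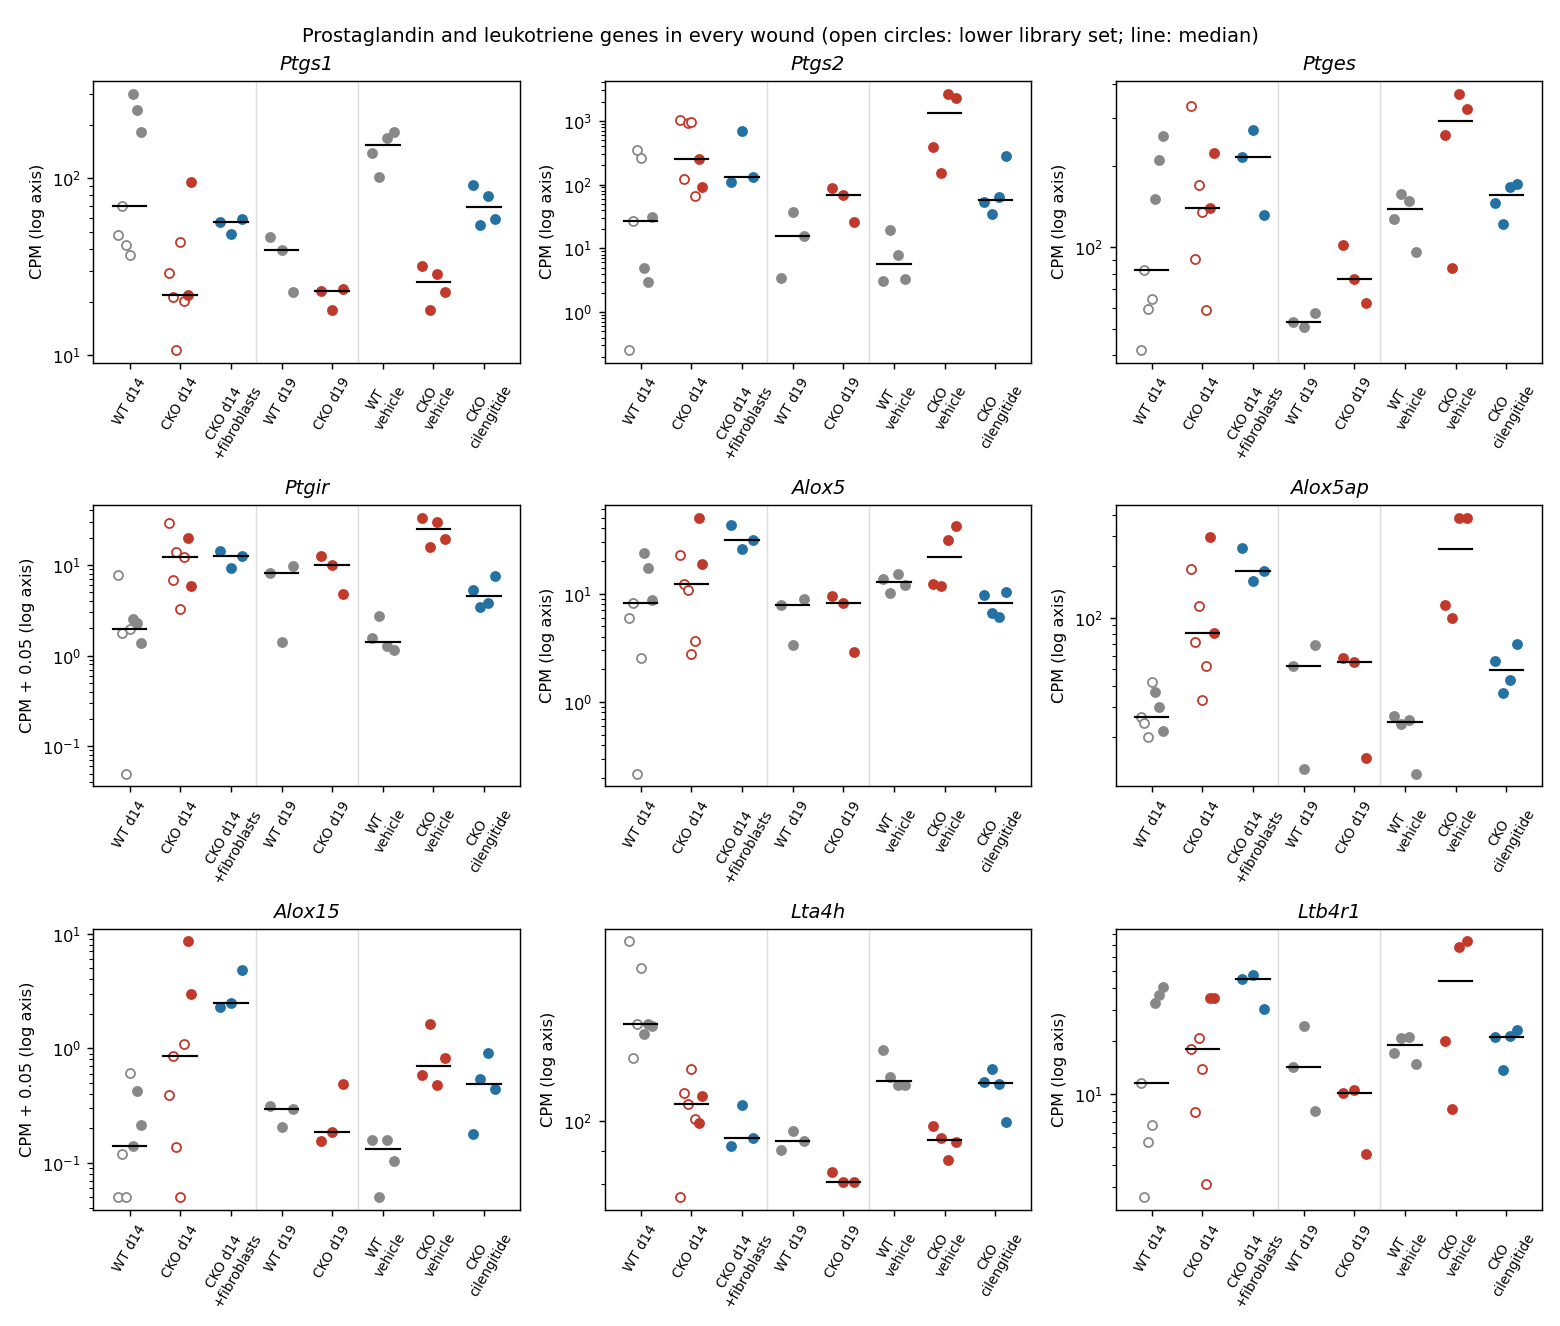
CPM of each gene in each of the 35 wounds on log axes, by group, with 0.05 added for Ptgir and Alox15. Points are wounds, lines are medians, and open circles are the lower library set. Ptgs2 in the 4 vehicle Col5a1CKO wounds sat at 151 to 2639.9 CPM, above every vehicle WT wound, while Ptgs1 sat below every vehicle WT wound.

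Ptgs1 encodes the constitutive cyclooxygenase. In vehicle wounds it was at 139, 102, 169.5 and 184 CPM in WT and at 31.7, 18.1, 28.9 and 22.9 CPM in Col5a1CKO. The groups did not overlap, and Ptgs1 was 5.92-fold lower in Col5a1CKO (log2 fold change -2.57, SE 0.25, adjusted p = 0.000609 by the quasi-likelihood test of edgeR). Among all genes tested there, 13.4% were called lower, and Ptgs1 was the 1 gene so called among the 9. With cilengitide it was at 92.0, 54.5, 79.1 and 58.8 CPM, above every vehicle Col5a1CKO wound and below every vehicle WT wound. The difference from vehicle was 2.77-fold (log2 fold change 1.47, SE 0.24, adjusted p = 0.00731), in a comparison where 6.48% of genes were called higher. Against vehicle WT, wounds with cilengitide were 2.08-fold lower (log2 fold change -1.06, SE 0.24, adjusted p = 0.0257), where 3.43% of genes were called lower. These comparisons share wounds, so they are not independent of each other.

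The Ptgs1 calls of vehicle Col5a1CKO against WT and of cilengitide against vehicle held without any 1 of the wounds. The call of cilengitide against vehicle WT was lost in 5 of 8 fits that left out 1 wound, namely cilengitide replicates 2, 3 or 4 or WT replicates 3 or 4, with an adjusted p of 0.0542 to 0.0650. Calls over all genes fell in these fits too, to 0 to 268 lower against 532 with all wounds.

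At day 14 in the other experiment, Ptgs1 had a lowest, median and highest value of 36.9, 69.6 and 300.3 CPM in WT and of 10.7, 21.9 and 94.8 CPM in Col5a1CKO. The ranges overlapped, and Ptgs1 was called 3.71-fold lower in Col5a1CKO (log2 fold change -1.89, SE 0.58, adjusted p = 0.0492), where 2.71% of genes were called lower. Among the WT wounds of day 14 this level differed between the library sets. The 4 WT wounds of the lower set had 36.9 to 69.6 CPM and the 3 of the upper set 183 to 300.3 CPM. It passed with the library set in the model (log2 fold change -1.34, adjusted p = 0.0190), but neither within the lower set (log2 fold change -0.99, adjusted p = 0.114) nor within the upper set (log2 fold change -1.96, adjusted p = 0.121). The call was also lost in 10 of 14 fits that left out 1 wound, those without WT replicates b, e, f or g or Col5a1CKO replicates a to f, with an adjusted p of 0.0508 to 0.105. All genes called lower in these fits numbered 191 to 553, against 390 with all wounds.

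At day 19 Ptgs1 was at 46.5, 39.6 and 22.9 CPM in WT and 23.1, 17.9 and 23.5 CPM in Col5a1CKO, which overlapped and did not pass (log2 fold change -0.68, SE 0.28, adjusted p = 0.205). The 3 Col5a1CKO wounds with WT fibroblasts were at 56.7, 48.3 and 58.6 CPM. The test was passed neither against Col5a1CKO without fibroblasts (log2 fold change 0.65, SE 0.54, adjusted p = 0.581) nor against WT (log2 fold change -1.12, SE 0.69, adjusted p = 0.377). Within the upper library set Ptgs1 was lower with fibroblasts than in WT (adjusted p = 0.000571).

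Ptgs2 encodes the inducible cyclooxygenase, which inflammatory signals switch on in macrophages, neutrophils and stromal cells. It had the largest fitted fold change of the 9 genes. Vehicle WT wounds had 3.06, 19.7, 7.98 and 3.27 CPM, and vehicle Col5a1CKO wounds 394, 151, 2639.9 and 2252 CPM. The groups did not overlap, replicates 3 and 4 of Col5a1CKO stood well above replicates 1 and 2, and the fitted difference was 157-fold (log2 fold change 7.30, SE 1.28, adjusted p = 0.00333). Genes called higher made up 17.5% of those tested in this comparison, and 4 of the 9 were among them, of which Alox15 passed the count filter only through its Col5a1CKO counts.

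Under cilengitide Ptgs2 was at 53.5, 34.9, 62.7 and 284 CPM, and replicate 4 overlapped the vehicle Col5a1CKO range. It was called 12.7-fold lower than with vehicle (log2 fold change -3.66, SE 1.11, adjusted p = 0.0471), where 6.59% of genes were called lower. This call was close to the threshold and was lost in 5 of 8 fits that left out 1 wound, cilengitide replicates 1, 2 or 3 or vehicle replicates 3 or 4, with an adjusted p of 0.0664 to 0.119. All genes called lower in these fits numbered 334 to 1086, against 1025 with all wounds. Ptgs2 was also above vehicle WT without overlap (log2 fold change 3.68, SE 0.92, adjusted p = 0.0319), where 5.15% of genes were called higher. That call was lost in 6 of 8 fits, those without cilengitide replicates 2, 3 or 4 or WT replicates 1, 3 or 4 (adjusted p 0.0549 to 0.0802). Genes called higher over all fell in these fits too, to 1 to 715 against 799 with all wounds.

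At day 14 in the other experiment Ptgs2 ranged from 0.257 to 349 CPM in WT, with a median of 26.4, and from 66.8 to 1014 CPM in Col5a1CKO, with a median of 255. WT replicates c and d lay within the range of the mutants, and the difference did not pass the test (log2 fold change 2.34, adjusted p = 0.223). Replicates c and d were also the only WT wounds of day 14 in that experiment with high Xist, at 1006 and 730 CPM. Of the vehicle WT wounds, replicates 1 and 3 with high Xist had 3.06 and 7.98 CPM of Ptgs2. Replicates 2 and 4, with low Xist, had 19.7 and 3.27 CPM, and the part of sex was not tested. At day 19 the values were 3.48, 37.2 and 15.5 CPM in WT and 88.6, 68.3 and 25.9 CPM in Col5a1CKO, again with overlap (log2 fold change 1.82, SE 0.86, adjusted p = 0.246). With WT fibroblasts the wounds were at 108, 679 and 134 CPM, within the Col5a1CKO range. The fitted difference from Col5a1CKO without fibroblasts was -0.69 on the log2 scale (SE 1.02, adjusted p = 0.765), and its sign turned within the upper library set (0.86). Against WT it did not pass over all wounds (log2 fold change 1.78, adjusted p = 0.527) and passed within the upper set (log2 fold change 4.68, adjusted p = 0.0367).

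The balance of the cyclooxygenases was also described by the ratio of Ptgs2 to Ptgs1 RPKM in each wound, a measure chosen after the values were seen and given without a test. In vehicle WT it was 0.0123 to 0.133, so Ptgs1 was the more abundant transcript per length in all 4 wounds. In vehicle Col5a1CKO it was 5.76 to 68.0, and Ptgs2 was the more abundant in all 4. With cilengitide the ratio was 0.402 to 3.34, with Ptgs2 above Ptgs1 in 1 of 4 wounds. At day 14 Ptgs2 was above Ptgs1 in 2 of 7 WT, 6 of 7 Col5a1CKO and 3 of 3 wounds with fibroblasts, and at day 19 in 0 of 3 WT and 2 of 3 Col5a1CKO wounds.

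**Figure D2:**
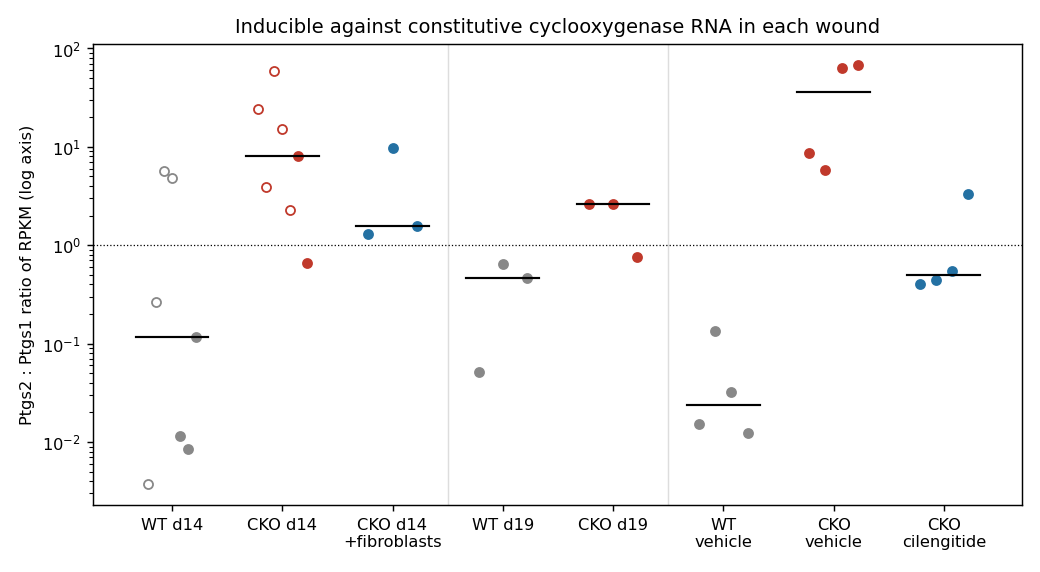
Ratio of Ptgs2 to Ptgs1 RPKM in each wound on a log axis, by group, with medians as lines, open circles for the lower library set and a dotted line at equal levels. Medians were 0.0238 in vehicle WT, 35.8 in vehicle Col5a1CKO and 0.495 with cilengitide.

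Ptges encodes the inducible prostaglandin E synthase that acts on the product of the cyclooxygenases. It was not called in any of the 7 comparisons. Vehicle WT wounds had 128, 157, 149 and 96.0 CPM and vehicle Col5a1CKO wounds 261, 84.2, 368 and 325 CPM, so that 3 mutant wounds lay above WT and replicate 2 lay below it (log2 fold change 0.95, SE 0.42, adjusted p = 0.0927). Cilengitide wounds were at 146, 122, 167 and 172 CPM (log2 fold change -0.79, adjusted p = 0.184 against vehicle). Without vehicle Col5a1CKO replicate 2, Ptges was called in both, with log2 fold changes of 1.24 (adjusted p = 0.00512) against WT and -1.08 (adjusted p = 0.0117) for cilengitide. At day 19 Ptges was at 53.0, 50.8 and 57.3 CPM in WT and 102, 76.7 and 62.2 CPM in Col5a1CKO, without overlap but short of the threshold (log2 fold change 0.65, SE 0.23, adjusted p = 0.174). At day 14 WT wounds ranged from 41.9 to 257 CPM and those of Col5a1CKO from 58.9 to 331 CPM (log2 fold change 0.43, adjusted p = 0.557). The 3 WT wounds of the upper set, at 151 to 257 CPM, were above the 41.9 to 82.8 CPM of the 4 in the lower set. Wounds with fibroblasts had 216, 271 and 132 CPM, short of the threshold against both Col5a1CKO (adjusted p = 0.756) and WT (adjusted p = 0.358).

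Ptgir encodes the prostacyclin receptor, which raises cyclic AMP in platelets and smooth muscle. It was low in vehicle WT, at 1.52, 2.67, 1.22 and 1.11 CPM, and higher in vehicle Col5a1CKO, at 33.1, 15.7, 29.7 and 19.3 CPM. The groups did not overlap (14.8-fold, log2 fold change 3.88, SE 0.39, adjusted p = 0.000684). Cilengitide wounds were at 5.27, 3.34, 3.76 and 7.48 CPM, between both vehicle groups and overlapping neither. They were 4.96-fold below vehicle Col5a1CKO (log2 fold change -2.31, SE 0.34, adjusted p = 0.00625), a call that held in all 8 fits that left out 1 wound. They were 3.05-fold above vehicle WT (log2 fold change 1.61, adjusted p = 0.0268), a call lost in 5 of 8 such fits, those without cilengitide replicates 2, 3 or 4 or WT replicates 3 or 4 (adjusted p 0.0517 to 0.0675). In these 5 fits, 1 to 287 of all genes were called higher, against 799 with all wounds.

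At day 14 in the other experiment Ptgir had a median of 1.93 CPM in WT (range 0 to 7.59) and 12.1 CPM in Col5a1CKO (range 3.19 to 29.0). WT replicate a overlapped the mutants, and the difference fell just short of the threshold (log2 fold change 2.37, SE 0.77, adjusted p = 0.0605). It passed with DESeq2 (adjusted p = 0.00590) and with the library set in the model (adjusted p = 0.0396). Day 19 values were 8.02, 1.34 and 9.54 CPM in WT and 12.4, 9.91 and 4.70 CPM in Col5a1CKO, which overlapped (adjusted p = 0.667). With fibroblasts the wounds were at 14.2, 9.18 and 12.5 CPM, a log2 difference of -0.12 (SE 0.58, adjusted p = 0.932) from Col5a1CKO without them.

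Alox5 encodes 5-lipoxygenase, found mainly in myeloid cells. It was at 13.6, 10.1, 15.2 and 11.97 CPM in vehicle WT and at 12.4, 11.7, 31.3 and 42.1 CPM in vehicle Col5a1CKO, where only replicates 3 and 4 exceeded the WT range (log2 fold change 0.92, SE 0.43, adjusted p = 0.107). Without replicate 2 of the latter it was called, at 1.14 (adjusted p = 0.0473). Cilengitide wounds had 9.73, 6.65, 6.10 and 10.4 CPM, all below the vehicle Col5a1CKO wounds (2.998-fold, log2 fold change -1.58, SE 0.46, adjusted p = 0.0403). That call was lost in 6 of 8 fits without 1 wound, leaving out any cilengitide replicate or vehicle replicates 3 or 4, with an adjusted p of 0.0603 to 0.103. Over all genes 334 to 1086 were called lower in these fits, against 1025 with all wounds. Against vehicle WT the cilengitide wounds differed by -0.62 on the log2 scale (adjusted p = 0.0699).

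In the other experiment Alox5 ranged at day 14 from 0.218 to 23.5 CPM in WT and from 2.79 to 50.2 CPM in Col5a1CKO, which overlapped (log2 fold change 0.92, adjusted p = 0.459). With fibroblasts it was at 42.6, 25.7 and 31.0 CPM. These wounds did not overlap WT, but the difference did not pass (log2 fold change 1.95, SE 0.82, adjusted p = 0.188) except within the upper library set (log2 fold change 1.16, adjusted p = 0.0378). The day 19 genotypes differed by 0.08 on the log2 scale (SE 0.59, adjusted p = 0.942).

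Alox5ap encodes the 5-lipoxygenase activating protein, which presents arachidonic acid to the enzyme. It was the member called higher in the most comparisons, 4 of the 7. Vehicle WT wounds had 26.5, 24.0, 25.3 and 12.3 CPM and vehicle Col5a1CKO wounds 118, 99.1, 384 and 384 CPM, without overlap (11.0-fold, log2 fold change 3.46, SE 0.55, adjusted p = 0.00234). Cilengitide wounds were at 55.7, 36.2, 43.3 and 70.3 CPM, between both vehicle groups with no overlap. They were 4.86-fold below vehicle Col5a1CKO (log2 fold change -2.28, SE 0.52, adjusted p = 0.0199) and 2.35-fold above vehicle WT (log2 fold change 1.23, SE 0.28, adjusted p = 0.0267). Each of these cilengitide calls was lost in 4 of 8 fits without 1 wound. The first was lost without cilengitide replicates 1, 2 or 3 or vehicle replicate 3 (adjusted p 0.0514 to 0.0574), and the second without cilengitide replicates 2, 3 or 4 or WT replicate 3 (adjusted p 0.0517 to 0.0641). Calls over all genes fell in the same fits, to 334 to 426 lower against 1025, and to 1 to 87 higher against 799.

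At day 14 in the other experiment Alox5ap had a median of 26.2 CPM in WT (range 20.1 to 42.2) and of 81.3 CPM in Col5a1CKO (range 33.2 to 297). Only Col5a1CKO replicate d lay within the WT range, and the gene was called 4.26-fold higher (log2 fold change 2.09, SE 0.43, adjusted p = 0.00989). In this comparison 5.57% of genes were called higher, and Alox5ap was the 1 gene so called among the 8 of the 9 that passed the count filter. The call held in all 14 fits without 1 wound, but within 1 library set alone the adjusted p was 0.0531 (lower set, log2 fold change 1.72) or 0.0547 (upper set, 2.78).

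With WT fibroblasts, Alox5ap stood at 255, 165 and 188 CPM, above all WT wounds (7.73-fold, log2 fold change 2.95, SE 0.26, adjusted p = 0.000298), and this call held in all 10 fits without 1 wound. In that comparison with WT 3.77% of genes were called higher and 2.06% lower, and of the 9 only Alox5ap was called. Against Col5a1CKO without fibroblasts it did not pass (log2 fold change 0.74, SE 0.57, adjusted p = 0.549). By day 19 Alox5ap was at 52.5, 13.1 and 69.4 CPM in WT and 58.2, 55.0 and 15.2 CPM in Col5a1CKO, with overlap (log2 fold change -0.03, SE 0.76, adjusted p = 0.983). A test of whether the genotype difference itself changed from day 14 to day 19 gave -2.14 on the log2 scale (SE 0.84, adjusted p = 0.729), so a change in the difference was not detectable with these wounds.

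Alox15 encodes 12/15-lipoxygenase of eosinophils and resident macrophages and was the scarcest of the 9, with at most 8.51 CPM in any wound. In vehicle WT it had 0.110, 0, 0.109 and 0.0536 CPM, which are 0 to 7 counts, and in vehicle Col5a1CKO 0.529, 1.57, 0.431 and 0.767 CPM, which are 20 to 114 counts. The groups did not overlap, and Alox15 was called higher (log2 fold change 3.55, SE 0.85, adjusted p = 0.0110), but it passed the count filter only through the Col5a1CKO wounds. Cilengitide wounds were at 0.129, 0.485, 0.856 and 0.395 CPM and overlapped the vehicle Col5a1CKO wounds (log2 fold change -0.84, SE 0.63, adjusted p = 0.351). At day 14 WT wounds had 0 to 0.561 CPM and Col5a1CKO wounds 0 to 8.51 CPM, and the gene did not pass the count filter in that comparison. With fibroblasts it was at 2.25, 2.45 and 4.80 CPM, above all WT wounds (log2 fold change 4.24, SE 1.15, adjusted p = 0.0527), and within the upper set alone the adjusted p was 0.00203. In both fits it passed the count filter only through the wounds with fibroblasts, at 71 to 163 counts against 0 to 11 in WT. The Col5a1CKO wounds of the upper set, replicates f and g, had 8.51 and 2.91 CPM without any fibroblasts. At day 19 it was at 0.265, 0.154 and 0.246 CPM in WT and 0.106, 0.138 and 0.436 CPM in Col5a1CKO, too few counts to test.

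Lta4h encodes leukotriene A4 hydrolase, which makes leukotriene B4 and is expressed in most cells. Its level varied little between wounds. Vehicle WT wounds had 128, 117, 114 and 114 CPM and vehicle Col5a1CKO wounds 98.5, 94.4, 87.2 and 93.0 CPM, without overlap (1.28-fold lower, log2 fold change -0.36, SE 0.10, adjusted p = 0.0215). At day 14 WT wounds were at 125 to 189 CPM and Col5a1CKO wounds at 76.4 to 120.4 CPM, again without overlap (1.44-fold lower, log2 fold change -0.52, SE 0.16, adjusted p = 0.0457). Both differences passed the adjusted p but not the 2-fold limit, so neither was called. The adjusted p rose to 0.0502 to 0.0719 in 4 of 8 vehicle fits without 1 wound, those without Col5a1CKO replicates 3 or 4 or WT replicates 1 or 2. It rose to 0.0566 to 0.113 in 10 of 14 day 14 fits, those without Col5a1CKO replicates a, b, c, e or f or WT replicates a, d, e, f or g.

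At day 19 Lta4h was at 90.2, 96.6 and 93.2 CPM in WT and 83.7, 80.7 and 80.8 CPM in Col5a1CKO, without overlap but short of the threshold (log2 fold change -0.13, SE 0.12, adjusted p = 0.535). Cilengitide wounds, at 115, 120.3, 114 and 99.8 CPM, all lay above vehicle Col5a1CKO (log2 fold change 0.25, adjusted p = 0.106) and overlapped vehicle WT (log2 fold change -0.07, SE 0.08, adjusted p = 0.534), passing neither test. Wounds with fibroblasts had 91.6, 106 and 94.3 CPM, all below the WT wounds of day 14, without passing (log2 fold change -0.49, adjusted p = 0.222).

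Ltb4r1 encodes BLT1, the high-affinity leukotriene B4 receptor of neutrophils and effector T cells. It was called in none of the 7 comparisons. Vehicle WT wounds had 17.2, 20.9, 21.0 and 14.9 CPM, and vehicle Col5a1CKO wounds 20.0, 8.26, 67.8 and 73.1 CPM, with replicates 3 and 4 high and replicate 2 below WT (log2 fold change 1.17, SE 0.62, adjusted p = 0.150). Without replicate 2 the gene was called, at 1.51 (adjusted p = 0.0253) on the log2 scale, and so was the difference of cilengitide from vehicle, at -1.46 (adjusted p = 0.0464). Cilengitide wounds were at 20.9, 13.6, 21.2 and 23.2 CPM, overlapping vehicle WT (log2 fold change 0.10, SE 0.19, adjusted p = 0.706). At day 14 Ltb4r1 followed the library set in both genotypes, with 2.61 to 11.5 CPM in the lower and 32.7 to 40.6 CPM in the upper WT wounds, and 3.10 to 20.8 and 34.9 to 35.0 CPM in those of Col5a1CKO. The genotypes differed by 0.02 on the log2 scale (SE 0.63, adjusted p = 0.989). Wounds with fibroblasts were at 44.9, 47.1 and 30.3 CPM and passed neither against Col5a1CKO without them (log2 fold change 1.09, adjusted p = 0.424) nor against WT (log2 fold change 1.21, adjusted p = 0.353). At day 19 WT wounds were at 14.2, 24.4 and 8.06 CPM and those of Col5a1CKO between 4.602 and 10.51 CPM (log2 fold change -0.78, SE 0.48, adjusted p = 0.339).

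**Figure D3:**
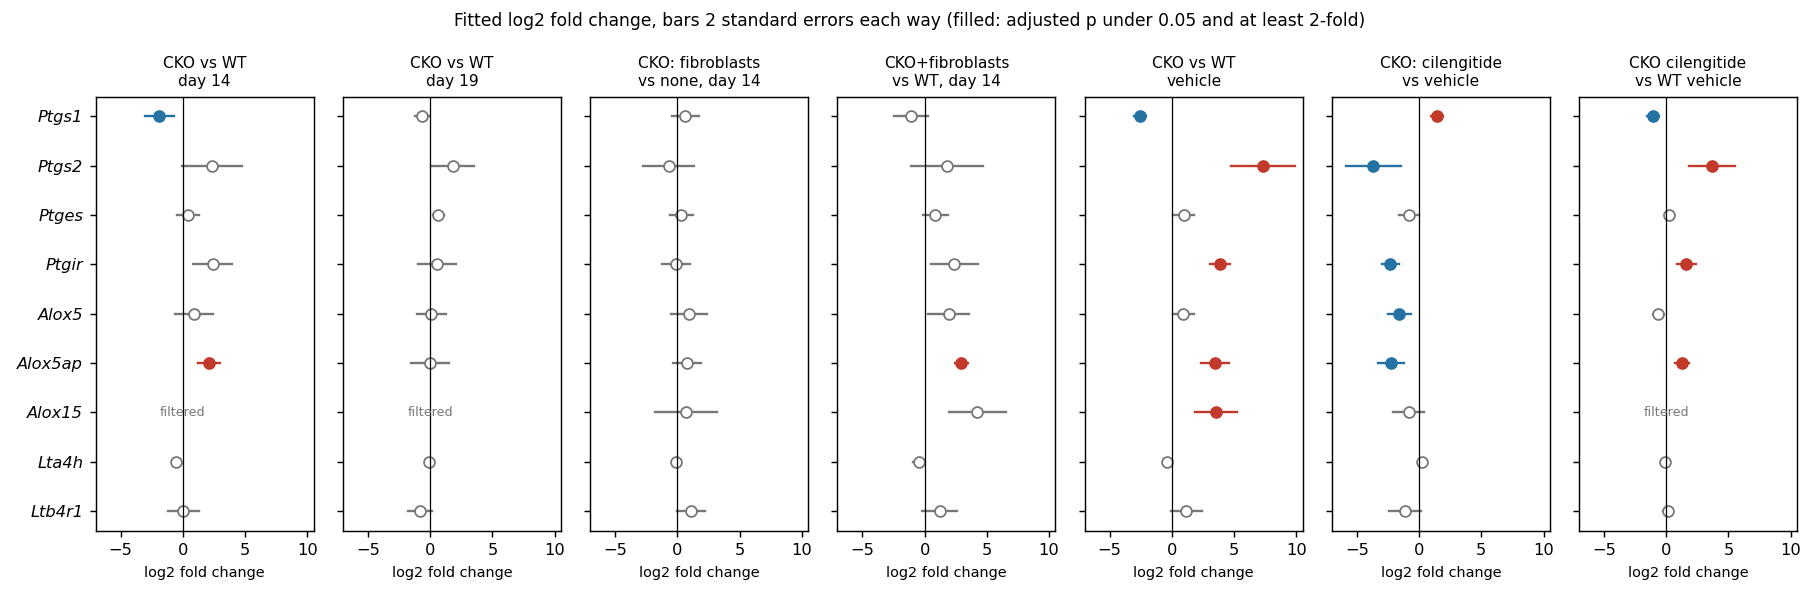
Fitted log2 fold change of each gene in the 7 comparisons, with bars of 2 standard errors each way. Filled points were called, red higher and blue lower, and "filtered" marks too few counts. Ptgs2, at 7.30 for vehicle Col5a1CKO against vehicle WT and -3.66 for cilengitide against vehicle, has the value farthest from 0 in each of those panels and wide bars.

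Read over the 9 genes, the vehicle comparison of genotypes had 4 called higher and 1 lower, beside 17.5% and 13.4% of all genes. The median log2 fold change was 1.17 against 0.02 over all genes tested. The 9 were chosen with earlier results of these data known, so such counts and medians describe the 9 and test nothing. Alox15, 1 of the 4, passed the count filter only through its Col5a1CKO counts, with or without vehicle Col5a1CKO replicate 2. Without vehicle Col5a1CKO replicate 2 there were 7 called higher, Ptges, Alox5 and Ltb4r1 being added, and 16.7% of all genes were called higher in that fit. Cilengitide against vehicle had 1 called higher and 4 lower, beside 6.48% and 6.59% of all genes, with a median of -1.12 against -0.06 over all genes. Without replicate 2 there were 6 called lower, Ptges and Ltb4r1 being added, where 8.99% of all genes were called lower. The 5 members called between the vehicle genotypes kept their call without that wound, at -2.44 (adjusted p = 0.00151) for Ptgs1, 7.67 (adjusted p = 0.00274) for Ptgs2, 4.04 (adjusted p = 0.00146) for Ptgir, 3.72 (adjusted p = 0.00223) for Alox5ap and 3.01 (adjusted p = 0.0253) for Alox15 on the log2 scale. For cilengitide the corresponding values were 1.34 (adjusted p = 0.0114) for Ptgs1, -4.04 (adjusted p = 0.0250) for Ptgs2, -2.48 (adjusted p = 0.00787) for Ptgir, -2.54 (adjusted p = 0.0118) for Alox5ap and -1.82 (adjusted p = 0.0214) for Alox5.

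At day 19 none of the 8 tested was called, where edgeR called 0.0198% of all genes, and 815 genes higher and 943 lower had an unadjusted p under 0.05 with a 2-fold change. With fibroblasts against none, none of the 9 was called, as were 0% of all genes, with 37 higher and 854 lower at an unadjusted p under 0.05 and 2-fold. For the change in genotype difference from day 14 to day 19, 0% of all genes were called and none of the 9, with 280 higher and 436 lower at an unadjusted p under 0.05 and 2-fold. DESeq2 called 684 higher and 713 lower, 9 and 10, and 22 and 12 genes in these 3 tests, and none of the members.

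Ranked by median RPKM, the order of the genes changed with genotype. In vehicle WT the order from the top was Lta4h at 55.8, Ptgs1 at 53.9, Ptges at 37.9, Alox5ap at 28.9, Ltb4r1 at 13.7, Alox5 at 4.52, Ptgs2 at 1.36, Ptgir at 0.411 and Alox15 at 0.0337 RPKM. In vehicle Col5a1CKO it was Ptgs2 at 319, Alox5ap at 294, Ptges at 80.2, Lta4h at 45.4, Ltb4r1 at 31.5, Ptgs1 at 9.04, Alox5 at 7.73, Ptgir at 7.34 and Alox15 at 0.268 RPKM. The ranges over wounds of the leading pair overlapped in each list. In the other experiment, WT wounds at day 14 had medians of 68.1 for Lta4h, 30.7 for Alox5ap, 24.3 for Ptgs1 and 6.37 RPKM for Ptgs2, and Col5a1CKO wounds had 51.5, 95.2, 7.65 and 61.4 RPKM in the same order. The 2 tables were scaled separately, so levels are compared within each.

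The other genes of the pathway were described from a list of 46 genes. In the vehicle comparison of genotypes 44 were tested, 11 were called higher and 12 lower, with a median log2 fold change of -0.30. Over all genes tested there, 17.5% were called higher and 13.4% lower, and the median was 0.02. Of 6 genes of leukotriene synthesis and clearance 4 were called higher and 1 lower, and the same counts held for the 5 tested receptors of leukotrienes and related lipid mediators. Fpr2, a formyl peptide and lipoxin receptor of phagocytes, ranged from 18.5 to 266 CPM in Col5a1CKO and from 0.446 to 1.36 CPM in WT (log2 fold change 7.23, SE 1.07, adjusted p = 0.00180). Ptger2, a prostaglandin E2 receptor, rose (log2 fold change 4.86, adjusted p = 0.00126), as did Cmklr1, the chemerin and resolvin E1 receptor (2.22, adjusted p = 0.00134).

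In addition, 5 of 7 tested genes of substrate release, all phospholipases A2, and 4 of 5 other lipoxygenases were called lower in vehicle Col5a1CKO, and none of either group higher. Alox12e, an epidermal lipoxygenase, was at 153 to 241 CPM in WT and at 0.0431 to 0.132 CPM, or 2 to 8 counts, in Col5a1CKO (log2 fold change -11.00, SE 0.40, adjusted p = 7.0e-05). It passed the count filter there only through the WT wounds. Alox12 was also lower (log2 fold change -3.73, adjusted p = 0.00513), as was Ltb4r2 (-4.25, adjusted p = 0.00185), the low-affinity leukotriene B4 receptor of keratinocytes. Ltb4r2 and Ltb4r1, which bind the same ligand, thus had fitted values of opposite sign, of which only that of Ltb4r2 passed. Of 8 prostanoid synthases 1 was called higher and 1 lower, of 8 prostanoid receptors 2 higher, and of 5 genes of transport and clearance none.

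With cilengitide against vehicle, 43 of the list were tested, 7 were called higher and 7 lower, with a median log2 fold change of 0.36, where 6.48% and 6.59% of all genes were called. Alox12e was at 22.7 to 159 CPM with cilengitide (log2 fold change 9.74, SE 0.85, adjusted p = 0.00217), and it passed the count filter here only through the cilengitide wounds. Ltb4r2 (3.73, adjusted p = 0.00835) and Pla2g2d, a phospholipase A2 of dendritic cells (3.72, adjusted p = 0.0119), also rose. Cmklr1 (-1.14, adjusted p = 0.00217) fell, as did Ggt5 (-1.01, adjusted p = 0.0149) and Dpep2 (-1.95, adjusted p = 0.0261), enzymes that trim leukotrienes C4 and D4. Against vehicle WT, 3 genes were called higher with cilengitide and 6 lower of 44, beside 5.15% and 3.43% of all genes. Those higher were Cmklr1 (1.12, adjusted p = 0.0309), Fpr2 (3.56, adjusted p = 0.0315) and Cyp4f18, which inactivates leukotriene B4 (2.80, adjusted p = 0.0352). The lower ones included the epidermal lipoxygenases Alox12b (-1.01, adjusted p = 0.0193) and Aloxe3 (-1.42, adjusted p = 0.0193) and the phospholipase Pla2g5 (-2.27, adjusted p = 0.0195).

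At day 14 in the other experiment 2 of 38 tested genes of the list were called higher and 3 lower, beside 5.57% and 2.71% of all genes. Cmklr1 (1.55, adjusted p = 0.00489) and Ggt5 (2.40, adjusted p = 0.00663) were higher in Col5a1CKO. Mgst2, a glutathione transferase that can make leukotriene C4 (-2.74, adjusted p = 0.00548), Pla2g5 (-2.93, adjusted p = 0.0187) and Ptgr1, which inactivates prostaglandins and leukotriene B4 (-1.16, adjusted p = 0.0301), were lower. The wounds with WT fibroblasts against WT gave 2 higher and 2 lower of 42, Cmklr1 (1.97, adjusted p = 0.00408), Ggt5 (2.48, adjusted p = 0.0202), Mgst2 (-2.91, adjusted p = 0.00189) and Ptgr1 (-1.34, adjusted p = 0.0126). Both comparisons use the same 7 WT wounds. At day 19 and for fibroblasts against none, 0 of 41 and 0 of 43 were called by edgeR.

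**Figure D4:**
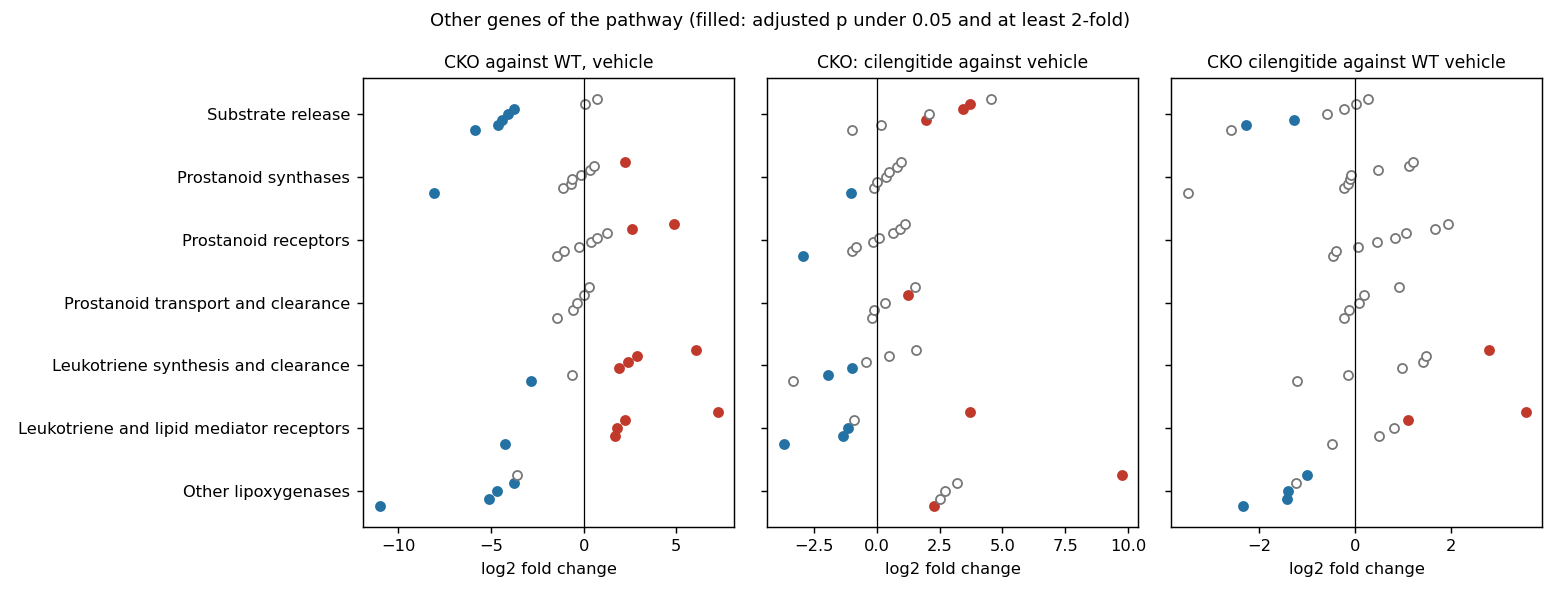
Fitted log2 fold change of the other tested genes of the pathway list in the 3 comparisons of the cilengitide experiment, by role. Each point is a gene, and filled points were called, red higher and blue lower. In vehicle Col5a1CKO against vehicle WT, 5 of 7 genes of substrate release and 4 of 5 other lipoxygenases were called lower.

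Several lists of cell markers also differed between the groups. In bulk tissue fewer cells of a type and less RNA per cell cannot be told apart. Between the vehicle groups, Ptprc, the leukocyte marker CD45, ranged from 34.8 to 54.1 CPM in WT, from 267 to 990.3 CPM in Col5a1CKO and, with cilengitide, from 95.3 to 234 CPM. All 7 monocyte and macrophage markers and 5 of 6 tested neutrophil markers (of 7 listed) were called higher in vehicle Col5a1CKO. The macrophage markers summed to 289 to 1071 CPM in WT, 3587 to 8312 CPM in Col5a1CKO and 1491 to 2107 CPM with cilengitide. The neutrophil markers summed to 111 to 2481, 1900.0 to 44640.5 and 3406 to 7827 CPM in the same order.

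Of the 6 keratinocyte markers 4 were called lower, with a sum of 60190.5 to 98475 CPM in WT, 57.7 to 11130.5 CPM in Col5a1CKO and 32085 to 67452 CPM with cilengitide. With cilengitide against vehicle, 4 of 7 macrophage and 1 of 6 neutrophil markers were called lower and 3 of 6 keratinocyte markers higher. At day 14 in the other experiment, 3 of 7 macrophage and 3 of 6 neutrophil markers were called higher and 0 of 6 keratinocyte markers lower. The macrophage sums there were 482 to 3266 CPM for WT against 1924 to 5381 CPM for the mutants. Neutrophil sums were 1218 to 9022 and 1812 to 21442 CPM, and keratinocyte sums 30492 to 160207 and 31.9 to 59146 CPM. Their part in the results for the 9 genes was not tested.

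In the vehicle comparison the smooth muscle list had 3 of 4 markers called higher, the endothelial list 2 of 5, the fibroblast list 2 of 6 and the eosinophil list 2 of 2 tested. Platelet markers had 2 higher and 1 lower of 4, T cell markers 1 higher and 1 lower of 4, and mast cell markers 0 of 5. The eosinophil marker Epx, eosinophil peroxidase, was at 0 in all 4 vehicle Col5a1CKO wounds and in all 7 WT wounds at day 14, and eosinophil sums reached at most 12.7 CPM in any wound. Keratinocyte RNA, which the labelled skin implies, was low in several Col5a1CKO wounds but not in all. Krt14 was at 1003, 27.6, 96.7 and 8594 CPM in vehicle Col5a1CKO, the last within the 5429 to 13914 CPM of vehicle WT. At day 14 in the other experiment it ranged from 9.35 to 18456 CPM in Col5a1CKO and from 6964 to 35866 CPM in WT.

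For each gene the other genes with the most similar pattern were sought by the smaller of 2 Pearson correlations of log2(CPM + 1), over the 12 wounds of the cilengitide experiment and over the 23 other wounds with library set means removed. These are descriptions of wounds that share groups and libraries. Ptgs2 was most like Il1b (0.99 and 0.94) and Cxcl2 (0.97 and 0.93), Alox5ap most like Gpsm3 (0.99 and 0.97) and Selplg (0.99 and 0.97), and Ptgir most like Plscr1 (0.97 and 0.93) and Mcoln2 (0.97 and 0.93). Ptgs1 was most like Eif1ad (0.96 and 0.95) and Sgpp1 (0.97 and 0.94). The closest for Ptges were Rbms1 (0.89 and 0.87) and Diap1 (0.87 and 0.90), for Alox5 Tmem120a (0.87 and 0.82) and Orai1 (0.94 and 0.82), and for Ltb4r1 Ppp4c (0.92 and 0.90) and Cdkn1a (0.93 and 0.89). Those for Lta4h were Tmem45a (0.87 and 0.87) and Zfp706 (0.87 and 0.88), and for Alox15 Camp (0.86 and 0.81) and 0610007N19Rik (0.81 and 0.80).

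Among the 9 themselves, Ptgs2 and Alox5ap had a correlation of 0.96 and 0.55 over the 12 and the 23 wounds, Alox5 and Alox5ap of 0.69 and 0.81, and Ptgir and Alox5ap of 0.91 and 0.80. Ptgs1 ran opposite to Ptgs2 (-0.87 and -0.40) and together with Lta4h (0.81 and 0.70).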

How the data were processed

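Bulk RNA-seq counts of injured mouse skin were analysed in 35 wounds. The authors deposited raw counts per gene, with no normalization, in 2 tables. Per the study's methods, 50 bp single-end reads were aligned with Hisat2 to NCBI37/mm9 and counted over exons of RefSeq genes, and the processing notes of the submitters name HISAT2 and mm9. For the cilengitide table the counting settings are not given in the sources used here. Where a symbol had several transcript rows, the row with the largest total was kept, and rows that name no gene (30 in the first table, with 0.0492% of its counts, and 1 in the second) were left out.

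The tests used the quasi-likelihood method of edgeR 4.0.16 under R 4.3.3 (TMM factors, filterByExpr with a minimum count of 10), each comparison on its own groups, with Benjamini-Hochberg adjustment over all genes tested. The SE was the log2 fold change divided by the square root of F. DESeq2 1.42.0, library size alone, no count filter, a 3-fold limit, all groups in one model, the longest transcript row, a block for the replicate letter, the library set and leaving out each wound were alternatives. The scripts were tested on simulated counts. Members and gene lists were chosen with earlier results of these data known. Named pathway genes were the 3 with the lowest adjusted p in each direction among those called. Sequence windows came from RefSeq, and the motif matches from a search for the stated letters in those windows.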

Additional observations from a re-analysis of the deposited data

Results flagged for a closer look

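In 5 of 45 sets of 4 or 7 wounds examined (9 genes in the 5 groups of that size), 1 wound stood far from the others by Dixon's criterion, which chance alone gives in about 1 of 20 groups. Replicate g of Col5a1CKO at day 14 had 94.8 CPM of Ptgs1, and the next highest wound had 43.7 CPM. Replicate f of the same group had 50.2 CPM of Alox5 with the next at 22.8 CPM, and 8.51 CPM of Alox15 with the next at 2.91 CPM. Replicate a of WT at day 14 had 7.59 CPM of Ptgir, and the next had 2.47 CPM. Replicate 4 of the cilengitide group had 284 CPM of Ptgs2, and the next had 62.7 CPM.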

How the results depend on the processing

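At day 14, 1 of the 9 genes was called higher between genotypes as reported, and there were 2 with DESeq2, 2 with library size alone, 3 with all groups in one model, 2 with the library set in the model and 0 in the lower set alone. Calls over all genes moved too, from 800 higher as reported to 1245, 1018, 1516, 1299 and 532 in the same order. The 1 called lower became 0 with library size alone, without a count filter, in the upper set and in the lower set (0, 0 and 0), where 246, 425, 63 and 423 of all genes were called lower, against 390 as reported. Wounds with fibroblasts against WT had 2 higher with DESeq2, 2 with library size alone, 2 with all groups in one model and 5 in the upper set, and 1 and 1 lower with the library set in the model and in the upper set. All genes called higher there numbered 578 as reported, 863, 728, 1020 and, in the upper set, 2999, which is 19.8% of those tested against 3.77% as reported. All genes called lower numbered 316 as reported, 1021 and 1691. Alox15, 1 of the 5 members higher in the upper set, passed the count filter there only through the wounds with fibroblasts. At a 3-fold limit, cilengitide had 0 higher against vehicle and 0 lower against vehicle WT, where all groups in one model gave 1 higher.

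Leaving out 1 wound gave 1 to 2 higher and 0 to 1 lower at day 14, 1 to 2 higher for fibroblasts against WT, 4 to 7 higher for the vehicle genotypes, 1 to 6 lower for cilengitide against vehicle, and 0 to 4 higher and 0 to 1 lower against vehicle WT. Calls over all genes moved as well. In the same order they were 494 to 928 higher and 191 to 984 lower, 207 to 650 higher, 2194 to 2917 higher and 334 to 1417 lower. Against vehicle WT they were 1 to 1192 higher and 0 to 619 lower, where 799 and 532 were called with all wounds. The log2 fold change of small differences spanned 0 in these fits, from -0.21 to 0.30 for Ltb4r1 at day 14, -0.26 to 0.46 for Alox5 and -0.48 to 0.44 for Alox5ap at day 19, -0.29 to 0.24 for Ptgir with fibroblasts against none, and -0.10 to 0.0033 for Lta4h with cilengitide against vehicle WT.

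Signs also turned for differences that had not passed. At day 14 Ltb4r1 was -0.00063 with DESeq2, -0.012 without a filter and -0.024 with all groups in one model, and Ptges -0.095 in the upper set. With library size alone Alox5 was -0.26 at day 19, and the change in genotype difference was -0.32 for Ptges and -0.15 for Lta4h. With fibroblasts against none, the library set in the model or the upper set alone gave -0.097 and -0.018 for Ptgs1, 0.83 and 0.86 for Ptgs2, -0.065 and -0.010 for Alox5, and -0.85 and -0.79 for Alox15. The cause was not tested.

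Whether the same letters pair the wounds could not be decided, as wounds with different letters were not compared. Same-letter pairs correlating over 0.1 numbered 5 of 7 at day 14, or 2 of 7, with a mean r of 0.0036, once library set means were removed. They numbered 0 of 3 at day 19, 1 of 3 for fibroblasts against none and 2 of 3 for fibroblasts against WT. With the replicate block, 0 of the 9 were called lower at day 14 (Ptgs1, adjusted p = 0.0553), 2 higher with fibroblasts against none and 3 against WT. The wounds of these fibroblast fits without the block gave 4 and 4, with 1704 and 1890 of all genes called higher against 1415 and 1458 under the block, an alternative chosen after seeing the data. These fibroblast fits kept only replicates a to c of each group. Those were all of the lower library set without fibroblasts and all of the upper set with them. Library set and fibroblast treatment therefore cannot be told apart in these counts. Under the block Alox5ap was 0.098 at day 19 and Ptgs1 0.013 with fibroblasts against WT. Alox15, the scarcest of the 9, had under 10 counts in every vehicle WT wound.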
